A study of Mus musculus with 8 samples.

Results

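The 10 genes described here encode the creatine kinase and adenylate energy buffer of muscle. They were chosen by name, with earlier results of these data known: *Ckm*, *Ckmt2*, *Ckb*, *Ak1*, *Ampd1*, *Ampd3*, *Gamt*, *Gatm*, *Prkaa2* and *Prkag3*. All 10 are among the 16686 genes with counts in the deposited table, and all 10 passed the filter on low counts that left 12542 genes for testing. RNA was sequenced from the tibialis anterior (TA), a fast-twitch muscle of the lower leg, of male mice aged 22 months on the FVBN background. The 4 WT muscles were compared with 4 C2-/- muscles, in which a stretch of exons of *Mybpc2*, the gene of fast myosin binding protein-C, is replaced by a Neo cassette between LoxP sites. Both groups share strain, sex, age and muscle, no agent was given, and the sources name no Cre driver or other restriction of the deletion to muscle. A growth note in the labels names a younger age, which conflicts with the age given for every sample. The sources count muscles per group and do not state that each came from a different mouse, so the p-values measure only the spread between these samples.

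Muscle contraction consumes ATP faster than mitochondria can replace it, and phosphocreatine fills the gap. Cytosolic creatine kinase passes phosphate from phosphocreatine to ADP at the myofibrils, mitochondrial creatine kinase rebuilds phosphocreatine from newly made ATP, and adenylate kinase turns 2 ADP into ATP and AMP. AMP is then either deaminated to IMP by AMP deaminase or sensed by the AMP-activated protein kinase (AMPK), whose γ3 subunit is found mainly in fast glycolytic fibres.

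The comparison asked whether aged fast muscle without fast myosin binding protein-C carries a different set of transcripts for this buffer. No difference between the genotypes was detected for any of the 10 genes. After Benjamini-Hochberg adjustment of the quasi-likelihood p-values of edgeR, 0 of 10 had an adjusted p under 0.05, and over all tested genes 0.0319% did. At an unadjusted p under 0.05 the count was again 0 of 10, where 5.29% of all tested genes passed. No member separated the genotypes completely, so that every C2-/- muscle lay on one side of every WT muscle, and 3.38% of all tested genes did. In C2-/-, 5 of 10 members were higher than in WT, where 45.8% of all tested genes were, with a median log2 fold change of 0.00 beside −0.02 over all tested genes. WT replicate 2 was the lowest of all 8 muscles in 5 of 10 members and the highest in 1. Over all tested genes it was the lowest in 24.5% and the highest in 27.5%.

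Each library held between 25425993 and 29747692 counts, and 3 counts, the smallest level taken as shown, corresponded to 0.104 to 0.116 CPM (counts relative to library size, scaled by TMM factors of 0.929 to 1.03). These limits cover counting error only. *Mybpc2* itself stood between 4964 and 7392 CPM in WT and between 3.85 and 38.3 CPM in C2-/-, the highest being C2-/- replicate 3. The label of a fast muscle was borne out by *Myh4*, the type IIb myosin heavy chain, at 27814 to 67068 CPM, against 0.365 to 20.9 CPM for *Myh7*, the slow heavy chain. *Myh4*, *Myh1* and *Myh2* had log2 fold changes of 0.09, 0.35 and −0.24 in C2-/- over WT. Of the slow-fibre list, 2 of 10 genes were higher and 8 lower in C2-/-. Among these, 2 were lower at an unadjusted p under 0.05 (edgeR) and not after adjustment, where 1.91% of all tested genes were lower at that unadjusted threshold. They were *Myh7* and *Myl2*, with log2 fold changes of −2.47 and −1.66. That of *Myh7* rested on WT replicate 4, at 20.9 CPM, and was −0.51 without it, past no threshold. That of *Myl2* was then −1.13 (unadjusted p = 0.0151, edgeR). *Myl2* was at 1.34 to 4.13 CPM in WT and 0.372 to 0.971 CPM in C2-/-. Every C2-/- muscle lay below every WT muscle in *Myl2*, as in 1.36% of all tested genes. The tendon genes *Tnmd* and *Cilp2* had log2 fold changes of 1.43 and 1.69 at an unadjusted p under 0.05 (edgeR), which neither kept without C2-/- replicate 2, C2-/- replicate 4 or WT replicate 1. WT replicate 2 stood apart from the other libraries, being the highest of all 8 in 27.5% and the lowest in 24.5% of all tested genes, where no other library exceeded 13.4% on either side. The RNA is from whole muscle, in which fewer cells of a type and less RNA per cell cannot be told apart.

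The upstream sequence is shown for the member with the highest level, *Ckm*, and for 3 whose level varied strongly between muscles, *Ckmt2*, *Ampd3* and *Prkag3*. Each run holds 250 bases before and 50 bases after a RefSeq transcription start on GRCm38.p6, read 5′ to 3′ on the strand of the gene. For *Ampd3* it is the most upstream of the 3 starts listed. Capitals mark every CANNTG, the E-box core bound by basic helix-loop-helix factors, which include the myogenic factors.
*Ckm*, chr7:19410844-19411143, plus strand: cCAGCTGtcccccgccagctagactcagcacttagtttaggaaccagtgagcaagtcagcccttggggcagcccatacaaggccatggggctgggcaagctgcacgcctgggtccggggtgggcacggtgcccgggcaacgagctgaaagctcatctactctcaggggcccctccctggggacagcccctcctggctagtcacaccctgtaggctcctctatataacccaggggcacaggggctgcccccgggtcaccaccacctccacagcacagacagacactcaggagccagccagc
*Ckmt2*, chr13:91876836-91877135, minus strand: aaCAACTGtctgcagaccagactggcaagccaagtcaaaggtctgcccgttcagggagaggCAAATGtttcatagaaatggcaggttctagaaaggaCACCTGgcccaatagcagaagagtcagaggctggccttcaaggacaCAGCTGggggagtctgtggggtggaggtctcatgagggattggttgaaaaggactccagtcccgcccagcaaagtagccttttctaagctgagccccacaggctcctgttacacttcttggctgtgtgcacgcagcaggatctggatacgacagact
*Ampd3*, chr7:110768372-110768671, plus strand: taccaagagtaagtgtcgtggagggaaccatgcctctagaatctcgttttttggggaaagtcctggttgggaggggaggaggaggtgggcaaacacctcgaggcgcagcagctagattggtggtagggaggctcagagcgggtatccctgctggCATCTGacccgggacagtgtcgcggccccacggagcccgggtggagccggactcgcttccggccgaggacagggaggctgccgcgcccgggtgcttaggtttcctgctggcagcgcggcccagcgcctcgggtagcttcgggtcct
*Prkag3*, chr1:74748906-74749205, minus strand: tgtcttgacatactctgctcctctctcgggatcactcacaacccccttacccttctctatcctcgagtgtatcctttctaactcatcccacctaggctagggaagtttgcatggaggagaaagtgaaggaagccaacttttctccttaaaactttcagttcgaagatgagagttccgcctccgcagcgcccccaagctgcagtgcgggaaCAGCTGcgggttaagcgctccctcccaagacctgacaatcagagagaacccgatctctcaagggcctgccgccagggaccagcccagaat
Of the 10 members, 9 had a window in the table, with 14 starts between them, and *Ampd1* had none. CANNTG, which reads the same way on both strands as a pattern, occurred in 11 of the 14 windows, of 7 members, where 72.3% of all 32851 windows held it. Its form CAGCTG occurred in *Ckm*, *Ckmt2*, *Ak1* and *Prkag3*, in 5 of the 14 starts, against 16.3% of all windows. It began 249 bases before the start in *Ckm*, 107 before it in *Ckmt2* and 40 before it in *Prkag3*. TATAAA, searched on both strands, occurred in 2 of the 14 windows, of *Ckb* and *Ak1*, and in 13.6% of all windows. The FoxO-type motif GTAAACA, also searched on both strands, was in none of the 14 windows and in 3.65% of all windows. These matches describe the letters of the windows only.

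Levels of different genes were compared in the authors' TPM, which are scaled for transcript length. The order over all 8 muscles was *Ckm* at a mean of 30297 TPM, *Ckmt2* at 1785, *Ak1* at 1265, *Ampd1* at 958, *Prkag3* at 162, *Prkaa2* at 70.1, *Gamt* at 50.8, *Ckb* at 6.60, *Ampd3* at 6.55 and *Gatm* at 1.59. *Ckm*, *Ampd1*, *Gamt* and *Ampd3* each had their lowest muscle above the highest muscle of the next gene in this order. *Ckmt2* lay above *Ak1* in 7 of 8 muscles. *Ak1* lay above *Ampd1*, *Prkag3* above *Prkaa2* and *Prkaa2* above *Gamt* in each of the 8, although their ranges over muscles overlapped. *Ckb* lay above *Ampd3* in 6 of 8, and the neighbours *Ckb* and *Ampd3* did not differ beyond their spread.

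**Figure D1:**
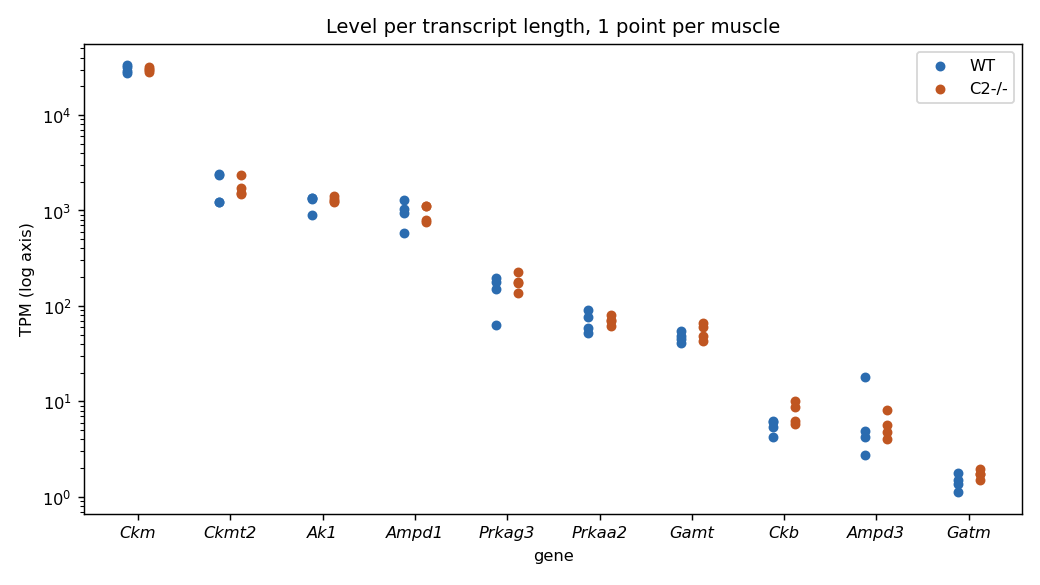
TPM of the 10 genes on a log axis, with 1 point per muscle (blue WT, orange C2-/-, 4 each), ordered by mean. *Ckm* stands at 27872 to 33189 TPM and *Gatm* at 1.11 to 1.97 TPM, and the *Ampd3* point at 17.9 TPM is WT replicate 2.

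Within each enzyme family a single gene supplied most of the transcripts, and its share was alike in the genotypes. *Ckm* made up 94.4% ± 1.96 (SD, n = 4) of creatine kinase TPM in WT and 94.4% ± 1.22 (SD, n = 4) in C2-/-, and *Ckmt2* 5.55% and 5.57%. *Ckb*, the brain-type cytosolic isoform, contributed 0.0169% in WT and 0.0240% in C2-/-. *Ak1* made up 93.1% of adenylate kinase TPM in both genotypes. *Ampd1* made up 98.7% of AMP deaminase TPM in WT and 98.98% in C2-/-. *Prkaa2* provided 91.5% and 91.8% of AMPK α transcripts in WT and C2-/-. *Prkag3* provided 70.4% ± 11.1 (SD, n = 4) of AMPK γ transcripts in WT and 74.6% ± 4.48 (SD, n = 4) in C2-/-, and its lowest share, 54.8%, was that of WT replicate 2.

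The creatine kinases come first. *Ckm* (gene ID 12715, chr7:19411094-19421583, plus strand) encodes the muscle-type cytosolic enzyme, which is bound in part to the sarcomeric M-band. Its expression was 24524, 23075, 20040 and 25316 CPM in WT replicates 1 to 4 and 22718, 19568, 22236 and 22549 CPM in C2-/- replicates 1 to 4. The groups overlapped, with WT replicate 3 and C2-/- replicate 2 the lowest of their groups. It differed between genotypes by a log2 fold change of −0.09 (SE 0.13; adjusted p = 0.979, edgeR), and the 95% interval of the fold ran from 0.771 to 1.14. *Ckm* varied little between muscles, with a coefficient of variation of 10.01% in WT and 6.80% in C2-/-, at the percentiles 16.9 and 13.8 of all tested genes. Without WT replicate 3, every C2-/- muscle lay below every WT muscle, as did 3.24% of all genes tested in that setting. Its exons share 451 bases with the antisense gene *A930016O22Rik*, and the sources do not state that counting used the strand, so the count is uncertain to that extent.

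*Ckmt2* (gene ID 76722, chr13:91853386-91876923, minus strand) encodes the sarcomeric mitochondrial creatine kinase of the intermembrane space. It reached 1895, 1078, 1692 and 976 CPM in WT replicates 1 to 4 and 1890, 1086, 1338 and 1101 CPM in C2-/- replicates 1 to 4. WT replicates 1 and 3 and C2-/- replicate 1 were high, C2-/- replicate 3 came next, and the 4 others lay between 976 and 1101 CPM. The 3 lowest, WT replicates 4 and 2 and C2-/- replicate 2, were also the 3 muscles with high immediate early genes. These 5 genes, which respond rapidly to stimulation, summed to 1155, 496 and 702 CPM there and to 27.8 to 72.5 CPM in the 5 other muscles. C2-/- replicate 4 was close to the 3 in *Ckmt2*, at 1101 against 1086 CPM in C2-/- replicate 2, and had the lowest sum, 27.8 CPM. The 3 muscles with high immediate early genes also held the highest *Ampd3*. There WT replicate 4 and C2-/- replicate 4 differed only by 10.79 against 10.75 CPM. The part of this in either gene was not tested. The highest muscle stood 1.94-fold above the lowest. Between genotypes *Ckmt2* differed by a log2 fold change of −0.06 (SE 0.25; adjusted p = 0.996, edgeR), with a fold interval from 0.655 to 1.41. The coefficient of variation was 32.1% in WT and 27.7% in C2-/-. Here 84 exonic bases are shared with the antisense gene *1700119I11Rik*.

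*Ckb* (gene ID 12709, chr12:111669355-111672338, minus strand) encodes the cytosolic isoform of brain, smooth muscle and many other cell types. WT muscles held 4.90, 3.65, 4.48 and 4.34 CPM, and C2-/- muscles held 7.003, 4.54, 4.399 and 7.42 CPM, in the order of the replicates. C2-/- replicates 1 and 4 were above all WT muscles, and C2-/- replicates 2 and 3 were within the WT range. Its log2 fold change was 0.43 (SE 0.21; adjusted p = 0.968, edgeR), and the fold interval ran from 0.973 to 1.86. The unadjusted edgeR p was 0.0685, but 0.0363 without C2-/- replicate 2 and 0.0295 without C2-/- replicate 3. The 4 smooth muscle markers were also higher in C2-/-, none at an unadjusted p under 0.05, and summed to 110 to 147 CPM in WT and 134 to 187 CPM in C2-/-. The 5 fibroblast markers summed to 291 to 426 CPM in WT and 467 to 644 CPM in C2-/-, and none of the 5 was at 0. Of these, *Dcn*, *Col1a1* and *Col3a1*, all genes of the extracellular matrix, passed an unadjusted p of 0.05, with log2 fold changes of 0.32, 1.30 and 1.38, and none passed the adjusted threshold (edgeR). The unadjusted call of *Dcn* was lost without WT replicate 4, C2-/- replicate 2 or C2-/- replicate 3. The highest smooth muscle sum, 187 CPM, and the lowest C2-/- fibroblast sum, 467 CPM, were both those of C2-/- replicate 1. The highest fibroblast sum, 644 CPM, was that of C2-/- replicate 3, which had the lowest *Ckb* of its group. C2-/- replicate 4, with the highest *Ckb*, had a smooth muscle sum within the WT range. The part of either cell type in the level of *Ckb* was not tested. A processed pseudogene, *Gm12892*, is 96.8% identical to *Ckb* over 1149 bases, which adds uncertainty to so low a count.

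**Figure D2:**
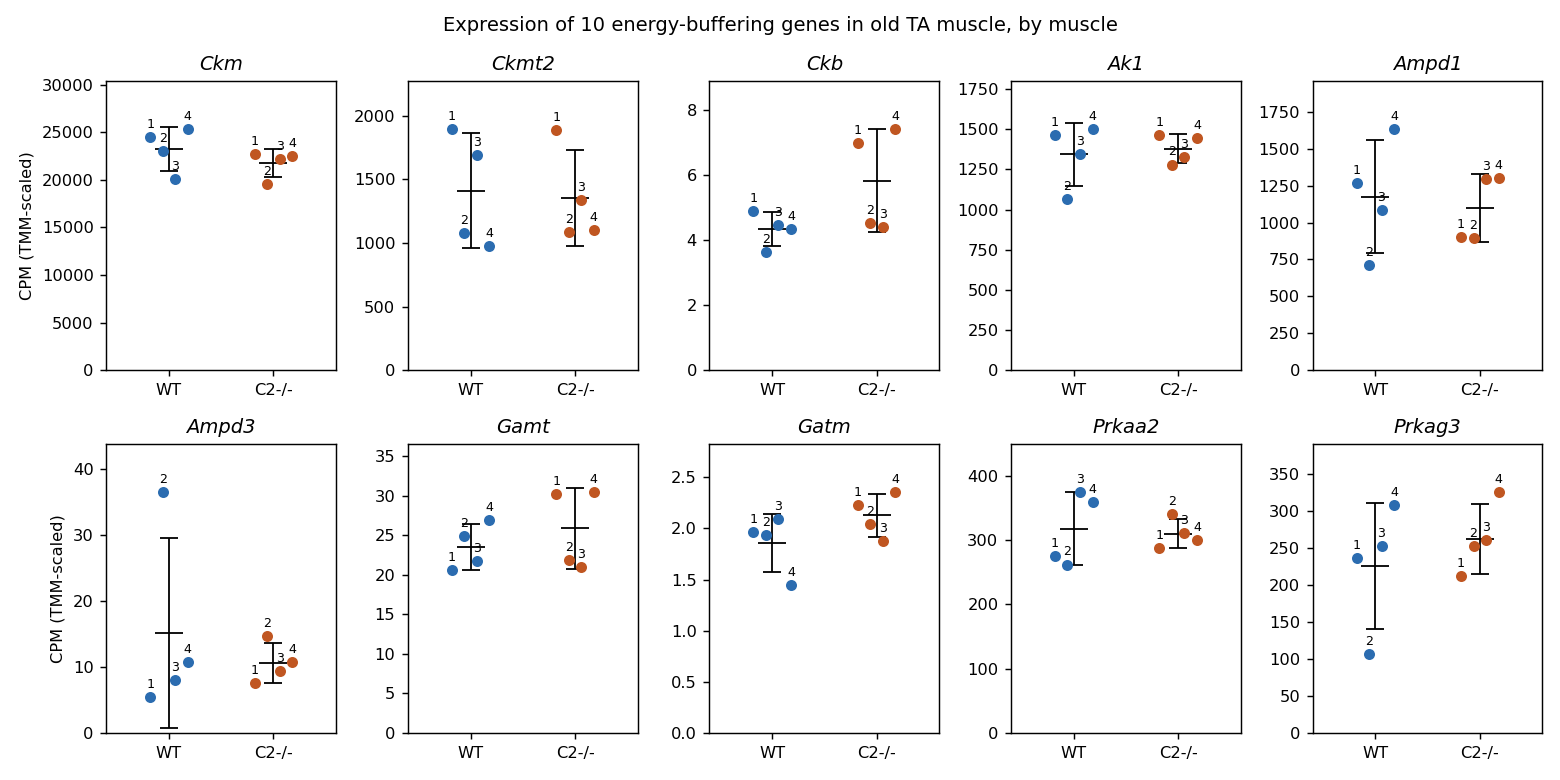
CPM (TMM-scaled) of each of the 10 genes in the 4 WT (blue) and 4 C2-/- (orange) muscles, numbered by replicate, with the mean and SD of each group as horizontal lines and bars. The groups overlap in every panel, and WT replicate 2 stands apart in *Ampd3* at 36.6 CPM and in *Prkag3* at 107 CPM.

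Creatine itself is made in 2 steps, by *Gatm* and *Gamt*, mostly in kidney and liver, and is taken up by muscle through the transporter *Slc6a8*. *Gamt* (gene ID 14431, chr10:80258151-80261025, minus strand), which methylates guanidinoacetate to creatine, was at 20.6, 24.9, 21.7 and 26.9 CPM in WT and 30.2, 21.9, 21.0 and 30.5 CPM in C2-/-. As with *Ckb*, the highest values were those of C2-/- replicates 1 and 4, while the other C2-/- muscles lay within the WT range. The log2 fold change was 0.14 (SE 0.16; adjusted p = 0.974, edgeR), with a fold interval from 0.861 to 1.40. *Gatm* (gene ID 67092, chr2:122594473-122611277, minus strand), which forms guanidinoacetate, was the lowest member, at 1.97, 1.93, 2.09 and 1.45 CPM in WT and 2.23, 2.05, 1.88 and 2.36 CPM in C2-/-. These levels rest on 40 to 68 counts per library, and the groups overlapped. Its log2 fold change was 0.20 (SE 0.21; adjusted p = 0.971, edgeR), with a fold interval from 0.828 to 1.58. *Slc6a8*, at a mean of 82.4 TPM the highest of these 3 genes, had a log2 fold change of −0.21 (adjusted p = 0.968, edgeR).

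*Ak1* (gene ID 11636, chr2:32621758-32635058, plus strand) encodes the cytosolic adenylate kinase of muscle. Its expression was 1462, 1064, 1346 and 1500 CPM in WT and 1466, 1281, 1327 and 1446 CPM in C2-/-. WT replicate 2 was the lowest of all 8, and the other 7 muscles lay between 1281 and 1500 CPM. For *Ak1* the log2 fold change was 0.04 (SE 0.13; adjusted p = 0.99, edgeR), with a fold interval from 0.841 to 1.26, and without WT replicate 2 it was −0.051.

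*Ampd1* and *Ampd3* encode the muscle-type AMP deaminase and the erythrocyte-type isoform. *Ampd1* (gene ID 229665, chr3:103073897-103099720, plus strand) was at 1268, 714, 1088 and 1632 CPM in WT and 899, 896, 1295 and 1300 CPM in C2-/-. Both the lowest and the highest muscle, replicates 2 and 4, were WT. Its log2 fold change was −0.10 (SE 0.24; adjusted p = 0.987, edgeR), with a fold interval from 0.647 to 1.35. Leaving out WT replicate 2 gave −0.27, and leaving out WT replicate 4 gave 0.11.

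*Ampd3* (gene ID 11717, chr7:110767790-110812409, plus strand) behaved differently in a single muscle. It was at 5.44, 36.6, 7.99 and 10.8 CPM in WT and 7.57, 14.8, 9.40 and 10.8 CPM in C2-/-. WT replicate 2 was 3.84-fold above the mean of the other 7 muscles, 9.53 CPM. The WT coefficient of variation, 94.9%, was at the percentile 98.9 of all tested genes. Across the genotypes this gave a log2 fold change of −0.52 (SE 0.52; adjusted p = 0.968, edgeR), with a fold interval from 0.316 to 1.54. Without WT replicate 2 the sign turned, to a log2 fold change of 0.40 (adjusted p = 0.99, edgeR). *Ampd3* shares 195 exonic bases with *Rnf141* and 196 with *B430319F04Rik*, both on the opposite strand, and 83 with *Gm47282* on its own strand.

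The AMPK members are *Prkaa2*, the catalytic α2 subunit, and *Prkag3*, the nucleotide-binding γ3 subunit. *Prkaa2* (gene ID 108079, chr4:105029649-105109898, minus strand) was at 276, 262, 375 and 359 CPM in WT and 288, 341, 310 and 301 CPM in C2-/-. WT replicates 1 and 2 lay below and WT replicates 3 and 4 above all C2-/- muscles. The log2 fold change was −0.04 (SE 0.14; adjusted p = 0.995, edgeR), with a fold interval from 0.787 to 1.21. *Prkag3* (gene ID 241113, chr1:74738922-74749471, minus strand) was at 236, 107, 252 and 308 CPM in WT and 211, 252, 260 and 325 CPM in C2-/-. WT replicate 2 was again the lowest, and the other 7 ran from 211 to 325 CPM. The log2 fold change was 0.22 (SE 0.27; adjusted p = 0.976, edgeR), with a fold interval from 0.764 to 1.77. Without WT replicate 2 it was −0.00924.

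**Figure D3:**
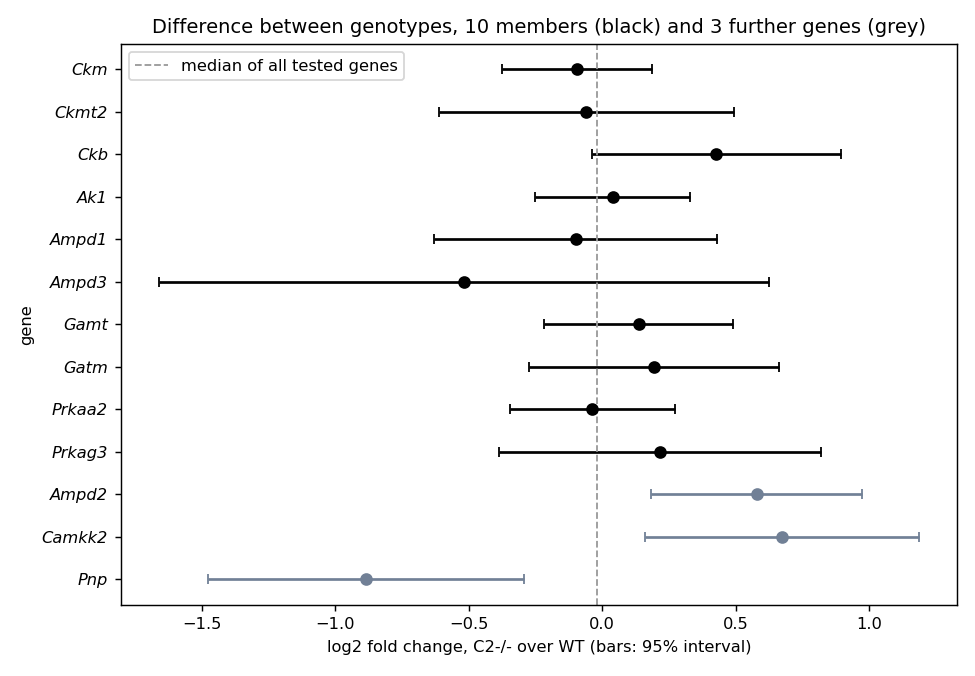
Log2 fold change of C2-/- over WT (points) with its 95% interval (bars) from edgeR for the 10 genes (black) and for *Ampd2*, *Camkk2* and *Pnp* (grey), with the median of all tested genes, −0.02, as a dashed line. Every black bar crosses 0, and the widest is that of *Ampd3*, from −1.66 to 0.63.

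Among all 8 muscles WT replicate 2 had the highest *Ampd3* and the lowest level of 5 members, *Ckb*, *Ak1*, *Ampd1*, *Prkaa2* and *Prkag3*. *Prkag3* stood at 0.406, *Ampd1* at 0.597 and *Ak1* at 0.758 times the mean of the other 7 muscles. *Ckm* was at 1.03 times that mean. Against the 24.5% of all tested genes that were lowest in WT replicate 2, 5 of 10 members were, and against 27.5% that were highest, 1 of 10 was. WT replicate 4 had the highest *Ckm*, *Ak1* and *Ampd1* and the lowest *Ckmt2* and *Gatm*. Over all tested genes WT replicate 4 was the highest in 9.27% and the lowest in 9.59%. In the same muscle 8 of the 10 denervation and atrophy markers were the highest of all 8, the exceptions being *Myh3* and *Myh8*. *Trim63* and *Fbxo32*, ubiquitin ligases of muscle wasting, stood at 682 and 971 CPM against means of 115 and 265 CPM in the other 7. *Chrna1*, the α subunit of the acetylcholine receptor, was at 60.3 against 23.2 CPM, and *Myog*, the myogenic factor myogenin, at 16.7 against 4.35 CPM. The 10 markers summed to 347 to 1836 CPM in WT, the highest being WT replicate 2, and to 377 to 444 CPM in C2-/-, and none was at 0 throughout. At an unadjusted p under 0.05 (edgeR), and not after adjustment, *Fbxo32* had a log2 fold change of −1.13, which was −0.53 and past no threshold without WT replicate 2. *Myh3* and *Myh8* had 1.14 and 0.91 at that threshold, and 0.41 and 0.57 past no threshold without C2-/- replicate 3. Each of these 3 calls, and that of *Myh7*, was also lost without some of the other muscles. WT replicate 2 was the lowest of all 8 in 5 of 8 tested tendon markers, 3 of 5 fibroblast markers and 3 of 4 smooth muscle markers. The red blood cell marker *Alas2* was highest in WT replicate 2, at 67.6 CPM against a mean of 22.3 CPM in the others. These others ran from 5.79 to 48.7 CPM, with C2-/- replicate 4 at 48.7 CPM and WT replicate 1 at 41.9 CPM the next highest. The part of any of these in the levels of *Ampd3*, *Ampd1*, *Ak1* and *Prkag3* was not tested.

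Ratios between partner genes within a library do not depend on the scaling between libraries. For 7 ratios, the difference in mean log2 ratio between genotypes was tested with a two-sided exact permutation test over 4 against 4 samples, which allows no p under 0.0286. The largest difference was that of *Ckb* to *Ckm*, 0.49 higher in C2-/- on the log2 scale (exact p = 0.0857, 0.6 after Benjamini-Hochberg adjustment over the 7 ratios). The others differed by −0.09 to 0.27, with exact p from 0.314 to 0.971. *Ampd3* to *Ampd1* was 0.0512 in WT replicate 2, while the other 7 muscles ran from 0.00429 to 0.0165, so the 2 AMP deaminases moved apart in that muscle. *Prkag3* to *Prkag1*, the ubiquitous γ1 subunit, was lowest in the same muscle at 2.55 and lay between 4.51 and 7.89 in the others. *Prkaa2* to *Prkaa1*, the α1 subunit, ran from 16.1 to 25.7 over all muscles.

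The rest of the pathway was followed in 40 further genes, of which 34 were tested: 16 were higher and 18 lower in C2-/-, with a median log2 fold change of −0.03. At an unadjusted p under 0.05, 2 were higher and 1 was lower, where 3.38% of all tested genes were higher and 1.91% lower at that threshold, and none passed after adjustment (edgeR). *Ampd2*, the AMP deaminase of non-muscle tissues, was at 5.94, 3.47, 4.85 and 4.89 CPM in WT and 7.76, 6.92, 6.31 and 7.63 CPM in C2-/-. Every C2-/- muscle lay above every WT muscle, as in 2.03% of all tested genes, with a log2 fold change of 0.58 (adjusted p = 0.732, edgeR). *Camkk2*, a calcium-dependent kinase that activates AMPK, was at 1.97, 1.57, 2.28 and 1.85 CPM in WT and 2.38, 4.17, 2.91 and 2.77 CPM in C2-/-. It also did not overlap, with a log2 fold change of 0.67 (adjusted p = 0.788, edgeR). Without C2-/- replicate 2 the unadjusted edgeR p of *Camkk2* was 0.059. *Pnp*, which cleaves inosine and guanosine, was at 7.94, 12.4, 9.49 and 5.57 CPM in WT and 3.07, 5.13, 4.93 and 6.03 CPM in C2-/-, overlapping through WT replicate 4 and C2-/- replicate 4. Its log2 fold change was −0.88 (adjusted p = 0.732, edgeR). The fibroblast sums given with *Ckb* were higher in every C2-/- muscle than in every WT muscle, while the smooth muscle sums overlapped. Within C2-/-, replicate 1 had the lowest fibroblast sum, the highest *Ampd2* and the lowest *Camkk2*. Replicate 3 had the highest fibroblast sum and the lowest *Ampd2*, and *Camkk2* was highest in replicate 2. The part of fibroblasts or smooth muscle in *Ampd2* and *Camkk2* was not tested.

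By list, the 3 tested creatine kinases included 1 higher and 2 lower in C2-/-, the 3 genes of creatine synthesis and uptake 2 and 1, and the 5 adenylate kinases 3 and 2. Of 6 genes of AMP deamination and the purine nucleotide cycle, 1 was higher and 5 lower. The 7 AMPK subunits and the 7 upstream kinases and scaffolds of AMPK each had 5 higher and 2 lower. Of 8 genes of AMP and adenosine breakdown and salvage, 3 were higher and 5 lower, and of 5 genes of mitochondrial ATP export 1 and 4. In the other lists not led by a member the gene of highest TPM was *Slc25a4*, the adenine nucleotide carrier of the mitochondrial inner membrane, at a mean of 4639 TPM for ATP export, *Stk11*, which encodes the AMPK kinase LKB1, at 122 TPM for the upstream kinases, and adenosine kinase *Adk* at 49.5 TPM for breakdown and salvage. Their log2 fold changes were 0.01, −0.18 and −0.15. Left untested for low counts were *Ckmt1*, *Ak5*, *Ak7*, *Ak8* and *Ada*, with at most 24 counts in any library. *Ckmt1*, the ubiquitous mitochondrial creatine kinase, had 2, 24, 15 and 17 counts in WT and 0, 1, 2 and 5 counts in C2-/-, which overlap.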

How the data were processed

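RNA of 4 WT and 4 C2-/- TA muscles from male mice was sequenced by the authors, and samples were grouped by their labels. The authors deposited 1 table with expected counts per gene, not normalized, and TPM. According to the sources, reads were aligned with HISAT to GRCm38.p6 and counted with featureCounts, and Bowtie2 and DESeq2 are also named. The deposited counts are not whole in 5.5% to 6.53% of values and were rounded. Columns with the authors' own fold changes, p-values and q-values were not used.

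The table has 16687 rows, of which 16686 carry counts for a gene ID, and 24 altered gene symbols were restored from gene IDs. The main test was the quasi-likelihood test of edgeR 4.0.16 (R 4.3.3) with TMM factors, its default filter and Benjamini-Hochberg adjustment over 12542 genes, at a threshold of 0.05. The methods name limma and voom, which was an alternative (limma 3.58.1), beside DESeq2 1.42.0, RLE factors, no factors, 2 other filters (1 count in total, 10 counts in every library), a replicate block and leaving out each muscle. Ratios were computed in Python 3.11.15 with scipy 1.17.1 and pandas 2.3.3. Between replicates, counts differed by more than sampling noise.

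The members and lists were chosen with earlier results of these data known. The text names all members, other pathway genes with an unadjusted p under 0.05, the partner genes of the ratios, the gene of highest TPM per list, *Mybpc2*, 4 myosin heavy chains and markers with an unadjusted p under 0.05. *Alas2*, *Trim63*, *Chrna1* and *Myog* were chosen after their values were seen.

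Gene positions, exons and near-identical transcripts are from the GRCm38.p6 annotation (GENCODE vM21), and promoter windows from RefSeq.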

Additional observations from a re-analysis of the deposited data

Results flagged for a closer look

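In C2-/-, *Ckm* was 19568 CPM in replicate 2, and its gap to the nearest of the other 3 muscles was 0.847 of the whole range of the group, above Dixon's 95% critical value of 0.829 for 4 samples. It was the only 1 of 44 groups examined to exceed that value, and chance passes about 1 in 20 groups. The highest muscle of the group was at 22718 CPM. *Ampd3* in WT, where replicate 2 stood at 36.6 CPM, had a gap of 0.828 of the range and fell just under the critical value.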

How the results depend on the processing

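Under all 15 alternatives no member reached an adjusted p under 0.05. Over all genes, edgeR called 4, DESeq2 called 39 with adjusted p, and leaving out single muscles gave 4 to 7, the highest without WT replicate 2. The count at an unadjusted p ranged from 506 to 983 around 663. Members with an unadjusted p under 0.05 numbered 0 to 1 when single muscles were left out, the 1 being *Ckb* without C2-/- replicate 2 or 3. Members without overlap numbered 0 to 1, the 1 being *Ckm* without WT replicate 3, where 7.9% of all genes tested did not overlap. The median log2 fold change of the members stayed between −0.03 and 0.11.

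The sign of 6 members and of 5 ratios turned under an alternative, and none of these members was past a threshold. The ratios could not pass 0.05 under any alternative. With a muscle left out, the exact permutation test allows no p under 0.0571. With the replicate block, an exact test that flips the signs of the 4 paired differences allows no p under 0.125. The log2 fold change of *Ckmt2* was 0.12 without WT replicate 1, 0.045 without WT replicate 3, 0.037 without C2-/- replicate 2 and 0.028 without C2-/- replicate 4 (range −0.26 to 0.12). That of *Ak1* was −0.051 without WT replicate 2 (range −0.051 to 0.11), that of *Ampd1* 0.11 without WT replicate 4 (range −0.27 to 0.11), that of *Ampd3* 0.40 without WT replicate 2 (range −0.80 to 0.40) and that of *Prkag3* −0.00924 without WT replicate 2 (range −0.00924 to 0.42). *Prkaa2* turned to 0.021 with no scaling factors, to 0.059 and 0.041 without WT replicates 3 and 4, and to 0.00467 without C2-/- replicate 1 (range −0.11 to 0.059). Log2 ratios ranged from −0.15 to 0.23 for *Ckmt2* to *Ckm*, −0.50 to 0.69 for *Ampd3* to *Ampd1*, −0.18 to 0.10 for *Gamt* to *Gatm*, −0.068 to 0.15 for *Prkaa2* to *Prkaa1* and −0.054 to 0.49 for *Prkag3* to *Prkag1*. The cause was not tested. *Ckm*, *Ckb*, *Gamt*, *Gatm*, *Ampd2*, *Camkk2* and *Pnp* kept their direction under all alternatives.

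Deviations of same-numbered muscles correlated at r = 0.27, 0.04, −0.05 and 0.02 over genes. Those of differently numbered muscles correlated at −0.23 to 0.20. These values do not settle whether the replicate numbers pair the samples, since only replicate 1 lay above the range of the differently numbered muscles. With the replicate number as a block, 0 members and 4 genes in all had an adjusted p under 0.05, the log2 fold change of *Ampd3* was −0.16 and that of *Ckb* 0.40. With 4 muscles a group, the fold intervals were wide, from 0.316 to 1.54 for *Ampd3* and from 0.655 to 1.41 for *Ckmt2*, so smaller changes of these genes were not detectable.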
